A study of Mus musculus with 8 samples.

Results

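Mouse chromosome 13 was followed along its length in 4 ChIP-seq libraries that map tagged histone H3 in a mesenchymal progenitor line from C3H mouse embryos, C3H10T1/2. Its members were all 10 kb bins of chromosome 13 whose mean over the 4 libraries was at least 0.5 RPM (mapped reads scaled to library size, the unit of the deposited table), 11216 of 245206 such bins on chromosomes 1 to 19 and X (4.57%), together with the 476 of 8375 deposited H3.3K36M peaks that lie on it. The chromosome was chosen by its measured ratio of H3.3K36M to H3.3 wild type, so its level of that ratio is given as a description and supports nothing, and the question followed here is whether the higher ratio is even along the chromosome or comes in segments.

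The study used 4 cell lines, each stably expressing 1 FLAG-HA-tagged histone: wild-type H3.1 (H3.1WT), H3.1K36M, wild-type H3.3 (H3.3WT) or H3.3K36M. All lines were at passages 10 to 15 and also kept their own untagged histones, since the tagged histone was added to them. Chromatin was precipitated with an antibody to the HA tag, 1 library per line, and 1 input DNA library per line was also made, 8 samples in all. The inputs were not used here, so a difference in DNA copy number or background between lines and a difference in histone placement cannot be told apart. The labels do not say whether a line is 1 clone. With 1 library per line there is no replicate spread and no test between lines: intervals are exact (Clopper-Pearson) 95% intervals on read counts and cover counting error only.

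H3.1 is the canonical histone H3, deposited behind the replication fork when DNA is copied. H3.3 is its variant that can be placed outside replication, by the chaperone HIRA at active genes and regulatory regions and by DAXX and ATRX at silent repeats and telomeres, so its signal normally rises and falls along a chromosome far more than that of H3.1. K36M replaces lysine 36 of H3 with methionine, a change found in chondroblastoma (as H3.3K36M) that inhibits the enzymes that methylate H3 lysine 36. Mouse chromosome 13 is acrocentric, with its centromere at the low-coordinate end.

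The bins used ran from 3000001 to 120270000 of the mm9 build and covered 112.16 Mb. A further 64 rows of 10 kb fell below the minimum, 63 of them above 0 and 1 at 0 in all libraries. The bin just inside the minimum, at 4980001, had a mean of 0.502 RPM, and the bin just outside it, at 75310001, a mean of 0.498 RPM. The gene annotation supplied is of a later build than the files, so no bin was assigned to a gene, exon or intron, and no genome of mm9 was used here to read sequence.

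Read depth was similar in the 4 libraries, between 35487141 and 46749609 reads in the whole table, and the median chromosome 13 bin held 125 to 156 reads. The H3.1 libraries were flat: the 90th percentile of chromosome 13 bins divided by the 10th was 1.96 (H3.1WT) and 1.83 (H3.1K36M). In H3.3WT the same quotient was 5.02, from 1.29 to 6.47 RPM, and in H3.3K36M it was 3.65, from 2.02 to 7.38 RPM. Chromosome 13 took 4.35% of the binned reads in H3.1WT, 4.40% in H3.1K36M, 3.98% in H3.3WT and 4.71% in H3.3K36M. The H3.3WT share was thus the lowest and the H3.3K36M share the highest of the 4.

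The median chromosome 13 bin had 3.65 RPM in H3.1WT, 3.76 in H3.1K36M, 2.86 in H3.3WT and 3.24 in H3.3K36M. Over all chromosomes the median bin had 3.65, 3.64, 2.77 and 3.0 RPM in the same order. Ratios below are log2 values of RPM plus 0.1, and a relative ratio is such a value minus the median of all bins, which was 0.10 for H3.3K36M over H3.3WT. On that scale the median of chromosome 13 was 0.19, the second highest of 20 chromosomes after chromosome 18 (0.26), with chromosome 6 at 0.14 and chromosome 15 lowest at -0.30. Of the chromosome 13 bins, 63.8% lay above the median of all bins. These values chose the chromosome.

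In 1 Mb windows the ratio was not even. There were 116 windows with at least 50 used bins, and 2 more windows were left out for having fewer. The relative ratio of the windows ran from -0.60 to 0.95. It was above 0 in 80 windows (69.0%, against 45.5% of all windows) and below 0 in 36, and the counting interval lay wholly above in 76 and wholly below in 31. The SD of the 116 windows was 0.32, which is 18.3 times the 0.018 that counting error gives, so the windows vary more than counting error gives. Without centring, the mutant exceeded the wild type in 95 windows and fell short of it in 21.

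**Figure D1:**
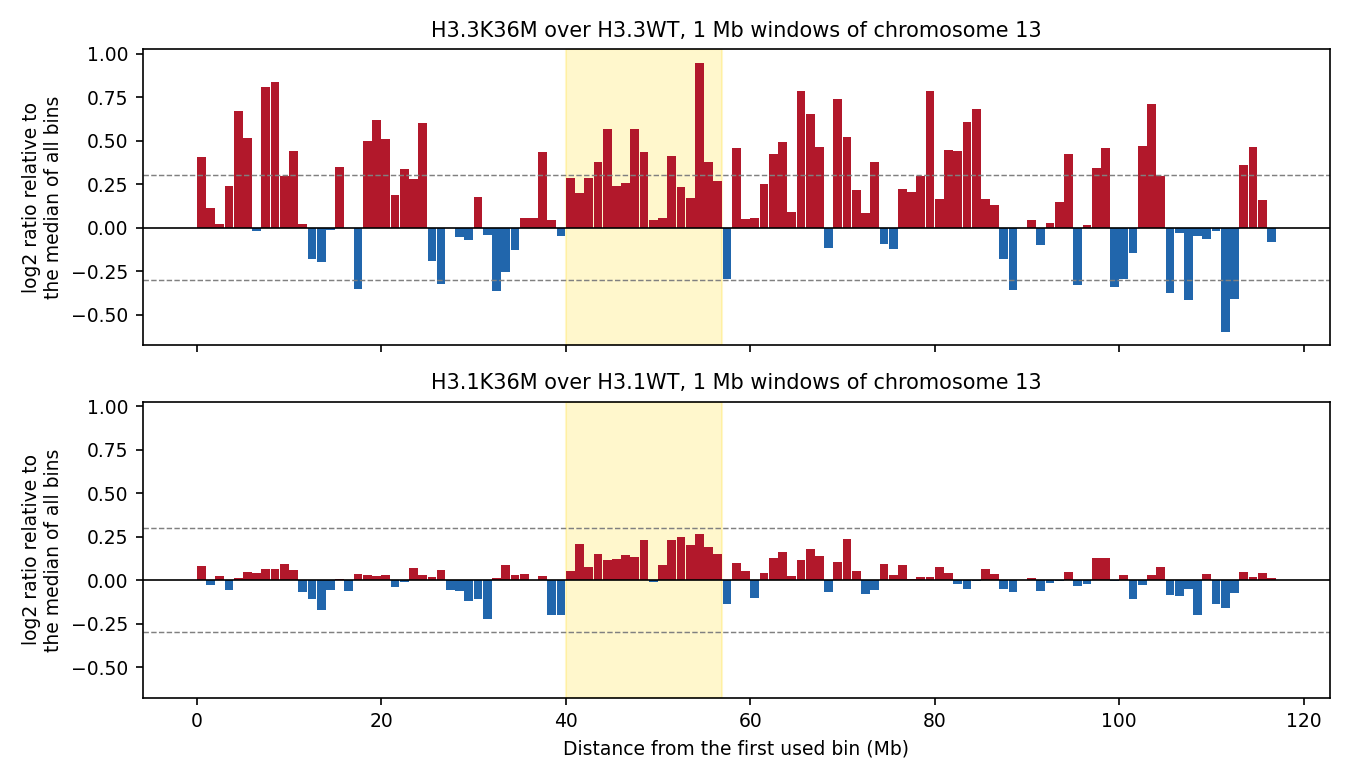
Relative log2 ratio in the 116 windows of 1 Mb (y axis) against distance from the first used bin in Mb (x axis), for H3.3K36M over H3.3WT (top) and H3.1K36M over H3.1WT (bottom), 1 library per line; red bars lie above and blue bars below the median of all bins, dashed lines mark 0.3 either way, and the shaded block spans 43 to 60 Mb of the chromosome. Tall and short bars alternate over the whole length in the top panel (SD 0.32), while the bottom panel stays within 0.3 (SD 0.10) and is raised over the shaded block.

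A window was called higher or lower when its relative ratio was at least 0.3 from 0, a rule of size. Of the 116 windows, 41 (35.3%) were at least 0.3 above, against 18.2% of all 2537 windows, and 10 (8.6%) were at least 0.3 below, against 19.2% of all windows. The other 65 lay between. These shares come from the contrast that chose the chromosome and are a description only. The spread itself did not set chromosome 13 apart: the SD of the windows of all other chromosomes was 0.34, and the lowest of any chromosome was 0.18, on X. The whole distribution of windows was displaced instead. Its 10th percentile was -0.28 (other chromosomes -0.45), its median 0.18 (-0.05) and its 90th percentile 0.60 (0.40), displacements of 0.17, 0.23 and 0.20.

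**Figure D2:**
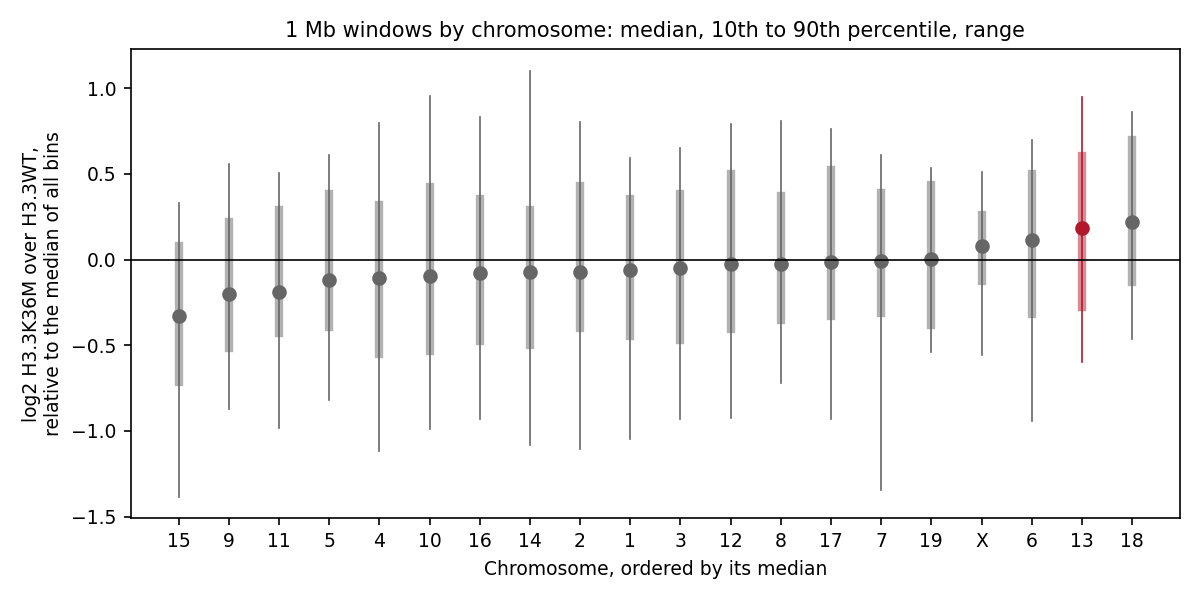
Relative log2 H3.3K36M over H3.3WT ratio in 1 Mb windows (y axis) for each chromosome (x axis, ordered by median), 1 library per line; dots are medians, thick bars the 10th to 90th percentile and thin lines the full range. Chromosome 13, in red, has a range of windows about as wide as most chromosomes, from -0.60 to 0.95, with a median higher than all but that of chromosome 18.

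Steps between adjoining windows were large. The median step was 0.23 and the largest 0.85, 50 of 114 adjoining pairs differed by at least 0.3, and the sign changed 29 times along the chromosome. At the level of single bins the SD was 0.50, against an SD of 0.19 expected from counting alone. Windows accounted for 42.9% of the variance between bins, and the SD of bins within windows was 0.38. The likeness of bins faded over about 1 Mb: Pearson's r between bin ratios was 0.757 for adjoining bins, 0.596 at 100 kb, 0.291 at 500 kb, 0.159 at 1 Mb and 0.018 at 2 Mb, over 10553 to 10998 pairs of bins. These r values describe bins of the same 2 libraries, which share depth and base composition, and bins are not replicates. The median r of the other chromosomes was 0.740 for adjoining bins and 0.136 at 1 Mb, so chromosome 13 kept its likeness over about the same distance as the others.

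In broad sections of about 20 Mb, the relative ratio was higher in most of the chromosome and close to the median of all bins in 2 places. The median was 0.26 from 3 to 20 Mb, 0.05 from 20 to 40 Mb, 0.33 from 40 to 60 Mb, 0.28 from 60 to 80 Mb, 0.21 from 80 to 100 Mb and -0.03 from 100 to 120 Mb. Windows above the median of all bins numbered 12 of 17, 10 of 20, 19 of 20, 16 of 20, 15 of 19 and 8 of 20 in that order. The last section, at the end far from the centromere, held 5 of the 10 windows at least 0.3 below. It also held 6 windows at least 0.3 above, so even there the 2 kinds stood side by side.

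A segment was defined as at least 3 adjoining windows at least 0.3 above, or below, the median of all bins. By that rule there were 3 higher segments, which together took in 10 of the 41 higher windows, and 0 lower segments. The rest of the higher windows stood alone or in pairs. Chromosome 6 had 8 such segments and chromosome 18 had 5.

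The first segment, from 21 to 24 Mb, had more H3.3WT signal than the other 2 but less than the mean of all bins (3.97 RPM). Its bins averaged 3.53 RPM in H3.1WT, 3.60 in H3.1K36M, 3.67 in H3.3WT and 5.68 in H3.3K36M. The 2 H3.1 lines were alike, with a ratio of 1.02 (95% interval 1.005 to 1.03), and H3.3K36M was 1.55-fold H3.3WT (1.53 to 1.57). Of its 298 bins, 288 were above the median of all bins. Its windows were unlike each other in H3.3WT, at 4.12, 2.24 and 4.67 RPM, and 9, 3 and 8 peaks started in them.

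The second segment, from 68 to 71 Mb, and the third, from 84 to 88 Mb, had lower H3.3WT levels. From 68 to 71 Mb the averages were 3.21 RPM in H3.1WT, 3.56 in H3.1K36M, 2.10 in H3.3WT and 3.41 in H3.3K36M. H3.3K36M was 1.62-fold H3.3WT there (1.60 to 1.65). Here H3.1K36M was also higher than H3.1WT, 1.11-fold (1.09 to 1.12). From 84 to 88 Mb the averages were 3.29, 3.27, 1.87 and 2.88 RPM in the same order, H3.3K36M was 1.54-fold H3.3WT (1.52 to 1.56), and the ratio of the 2 H3.1 lines was 0.994 (0.981 to 1.006). The 3 segments thus had H3.3WT means from 1.87 to 3.67 RPM and folds from 1.54 to 1.62.

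The 5 windows with the highest ratio began at 57, 11, 10, 68 and 82 Mb, and H3.3WT was at or below 1.63 RPM in each. The window at 57 Mb averaged 3.20 RPM in H3.1WT, 3.84 in H3.1K36M, 1.19 in H3.3WT and 2.47 in H3.3K36M. H3.3K36M was 2.07-fold H3.3WT there (2.00 to 2.14), all 92 of its bins were above the median of all bins, 38 were at least 2-fold higher and no peak started in it. The windows at 11 and 10 Mb had 1.41 and 1.43 RPM in H3.3WT, 2.70 in H3.3K36M in both cases, and folds of 1.91 (1.85 to 1.98) and 1.88 (1.82 to 1.94). The window at 68 Mb went from 1.48 to 2.73 RPM, 1.85-fold (1.79 to 1.92), and the window at 82 Mb from 1.63 to 3.01 RPM, 1.85-fold (1.80 to 1.90). In all 5, H3.3K36M stayed below both H3.1 libraries. The median bin of all chromosomes did too, at 3.0 RPM against 3.65 in H3.1WT and 3.64 in H3.1K36M, so this does not set them apart.

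The 5 lowest windows began at 114, 110, 115, 108 and 35 Mb, and 4 of them lay within 8 Mb of each other near the far end. The window at 114 Mb averaged 4.71 RPM in H3.1WT, 4.21 in H3.1K36M, 5.42 in H3.3WT and 3.84 in H3.3K36M, which is 1.41-fold lower (1.38 to 1.44) in the mutant. Of its 96 bins, 1 was above the median of all bins and 16 were at least 2-fold lower, although 5 peaks started in it. The window at 110 Mb fell from 4.39 to 3.53 RPM, 1.24-fold lower (1.22 to 1.27). The window at 115 Mb had 4.22 RPM in H3.3WT and 3.41 in H3.3K36M, 1.24-fold lower (1.21 to 1.27). The windows at 108 and 35 Mb were 1.21-fold (1.18 to 1.24) and 1.20-fold (1.17 to 1.23) lower. In H3.1 these windows differed less: the H3.1K36M over H3.1WT ratio was 0.894 at 114 Mb, 0.966 at 110 Mb, 0.949 at 115 Mb, 0.941 at 108 Mb and 1.007 at 35 Mb.

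The 41 higher and 10 lower windows thus differed mainly in H3.3WT, while the lower windows differed from the 65 between mainly in H3.3K36M. The median over the 41 higher windows was 2.20 RPM in H3.3WT and 3.3 in H3.3K36M. It was 3.84 and 4.27 RPM over the 65 windows between, and 4.13 and 3.42 RPM over the 10 lower windows. H3.3WT spanned 2.20 to 4.13 RPM over these 3 sets, H3.3K36M 3.3 to 4.27, and H3.1WT and H3.1K36M stayed between 3.50 and 3.80. H3.3WT is the denominator and H3.3K36M the numerator of the ratio that sorted the windows, so this order is in part built in.

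**Figure D3:**
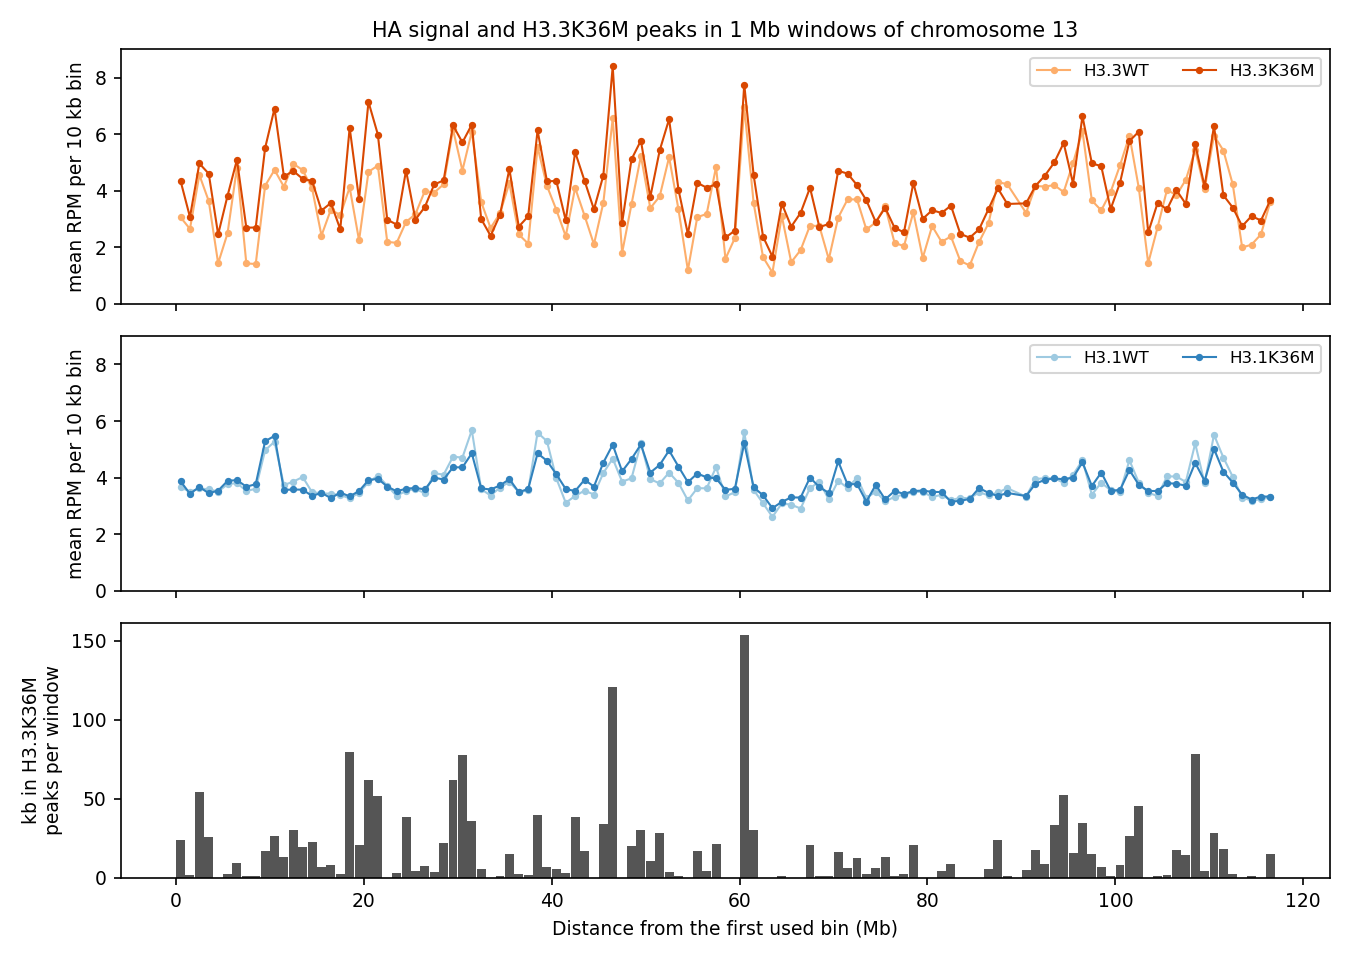
Mean RPM per 10 kb bin in each 1 Mb window (y axis) against distance from the first used bin in Mb (x axis) in the 2 H3.3 libraries (top) and the 2 H3.1 libraries (middle), and the length of H3.3K36M peaks per window in kb (bottom). The lowest window of H3.3WT has 1.11 RPM and 1.67 RPM in H3.3K36M, and the H3.1 libraries, at 2.62 and 2.92 RPM, are low there too; peak length concentrates in a few windows, up to 153.4 kb in one.

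The ratio of H3.3 to H3.1 was taken within the wild-type lines and within the K36M lines. Over the whole of chromosome 13 it was close to that of all bins, at -0.02 in the wild-type lines (rank 12 of 20) and 0.05 in the K36M lines (rank 7). The wild-type value is too small for a direction: it was 0.02 when the top and bottom 1% of bins were left out. The 3 windows with the highest H3.3WT over H3.1WT ratio began at 49 Mb (1.40, 1.38 to 1.43), 103 Mb (1.40, 1.37 to 1.43) and 99 Mb (1.32, 1.30 to 1.35). The same windows had 1.63, 1.20 and 1.46 in the K36M lines. The 3 lowest were the windows at 57 Mb (0.373, 0.361 to 0.386), 11 Mb (0.391, 0.379 to 0.404) and 10 Mb (0.406, 0.394 to 0.418), and in the K36M lines they stood at 0.643, 0.716 and 0.732. These 3 are also the 3 highest for H3.3K36M over H3.3WT, but the 2 ratios share the H3.3WT library, as numerator in one and denominator in the other, so nothing is read from this.

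To see whether chromosome 13 was higher only where H3.3 is rich or poor, all bins were put into 10 equal classes by the mean RPM of both H3.3 libraries. The median relative ratio of chromosome 13 was above that of all bins in 10 of 10 classes. In the lowest class it was 0.43 against 0.20 in all bins, in class 2 it was 0.54 against 0.25, in class 5 it was 0.20 against 0.12, in class 8 it was -0.10 against -0.33 and in the highest class 0.26 against -0.13. The difference was smallest in classes 5 and 6 (0.08 and 0.09) and largest in class 10 (0.39). In that top class the median bin of chromosome 13 had 8.20 RPM in H3.3WT and 10.3 in H3.3K36M, while over all bins it had 9.57 and 9.30. The bins of chromosome 13 were spread over the classes without piling up at either end, with 7.52% in the lowest class, 12.4% in class 6 and 7.54% in the highest. Chromosome 18 was also above all bins in every class, by 0.11 to 0.39, and chromosome 15 below in every class. The classes use the libraries of the ratio itself. Chromosome 13 was chosen by that ratio, so its place above all bins is in part built in.

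**Figure D4:**
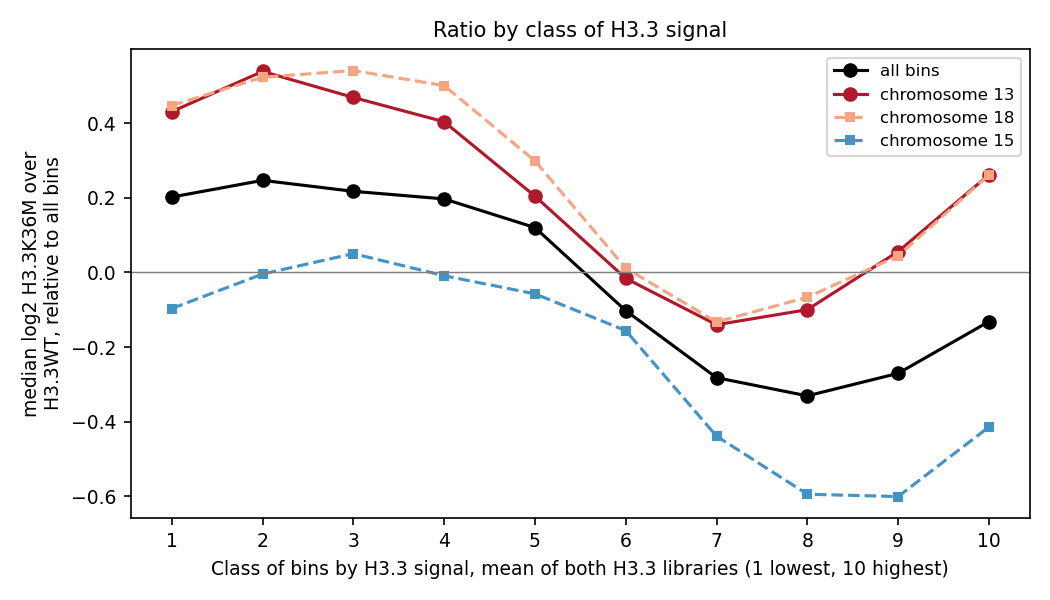
Median relative log2 H3.3K36M over H3.3WT ratio (y axis) in 10 equal classes of bins by the mean of both H3.3 libraries, lowest to highest (x axis), for all bins (black), chromosome 13 (red), chromosome 18 (dashed, light red) and chromosome 15 (dashed, blue), 1 library per line. The curve of chromosome 13 has the shape of that of all bins and lies above it in 10 of 10 classes, by 0.08 to 0.39. The chromosome was chosen by this ratio.

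The longest unbroken run of windows above the median of all bins went from 43 to 60 Mb, 17 windows, against 18 on chromosome 18 and 17 on X. Its bins averaged 3.85 RPM in H3.1WT, 4.27 in H3.1K36M, 3.47 in H3.3WT and 4.58 in H3.3K36M. H3.3K36M was 1.32-fold H3.3WT (1.31 to 1.33), 1352 of 1662 bins were above the median of all bins, 186 rose 2-fold or more and 0 fell that far. On the whole chromosome 6.93% of bins rose that far and 0.428% fell, against 2.94% and 1.81% of all bins. The run was defined by this ratio, so an excess of higher bins in it is in part built in. Over the same stretch H3.1K36M was 1.11-fold H3.1WT (1.10 to 1.12), and 16 of the 17 windows were above the median in that ratio too; the exception was the window at 52 Mb, at -0.01. The H3.3 and H3.1 ratios share no library. The comparison of H3.1 over this stretch was chosen after its values were seen. Single windows in it still ranged from 0.04 to 0.95 in the H3.3 ratio.

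At the low-coordinate side, the windows at 41 and 42 Mb had an H3.1 ratio of 0.869 in both cases, and the next windows had 1.04 at 43 Mb and 1.16 at 44 Mb. At the high-coordinate side both ratios changed sign in 1 step: the window at 59 Mb stood at 0.27 in the H3.3 ratio and 0.15 in the H3.1 ratio, and the window at 60 Mb at -0.30 and -0.14. In that last window H3.1WT had 4.37 RPM, H3.1K36M 3.98, H3.3WT 4.84 and H3.3K36M 4.23, so both mutants were below their wild types. Whether DNA copy number in these lines moves with this stretch was not tested.

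In pieces of 100 kb the H3.3 ratio changed abruptly inside windows, at steps in the H3.3WT level. H3.3WT is the denominator of that ratio, so a low ratio where H3.3WT is high is in part built in. The region described begins at the window with the highest ratio of the chromosome, so it does not stand for the rest. From 57000001 to 58200000 every piece had an H3.3WT level of 1.07 to 1.78 RPM and a relative ratio of 0.75 to 1.24. From 58200001 to 58700000 H3.3WT rose to between 4.22 and 5.09 RPM, and the relative ratio lay between -0.05 and 0.30. After 1 piece between (2.10 RPM, 0.53), from 58800001 to 59500000 H3.3WT was again low, at 1.01 to 1.58 RPM, and the ratio again high, at 0.90 to 1.09. The border at 59500000 was sharp. In the 46 bins of the last 500 kb before it, H3.3WT averaged 1.28 RPM and H3.3K36M 2.75, 2.15-fold (2.05 to 2.25). In the 48 bins of the first 500 kb after it they averaged 5.00 and 5.41 RPM, 1.08-fold (1.05 to 1.11). Across that border H3.1WT went from 3.32 to 3.91 RPM and H3.1K36M from 3.89 to 4.13. The H3.1 ratio went from 1.17 to 1.06 and made no step of that size.

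**Figure D5:**
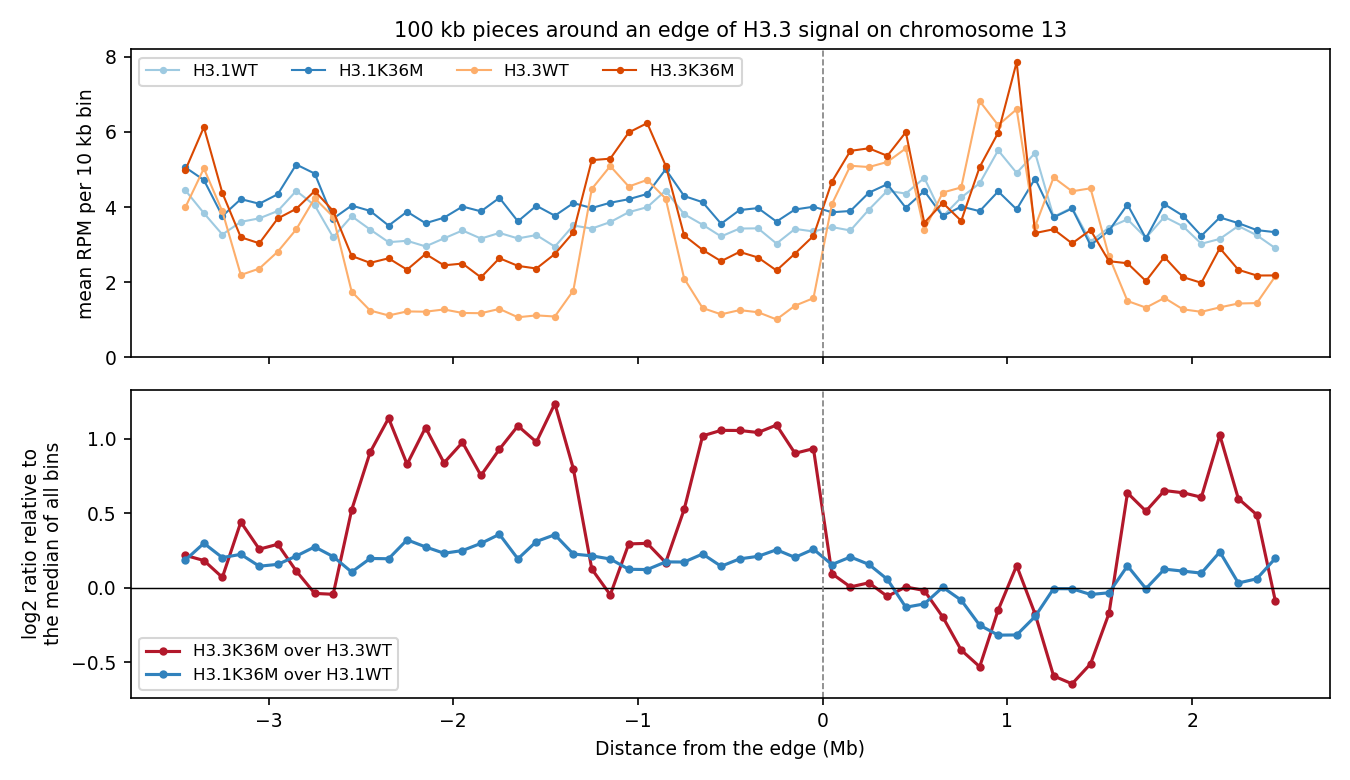
Mean RPM per 10 kb bin of the 4 libraries (top, y axis) and the 2 relative log2 mutant over wild-type ratios (bottom, y axis) in pieces of 100 kb against distance in Mb from the edge described in the text (x axis, dashed line at 0), 1 library per line. In the last 500 kb before the edge the H3.3 ratio lies between 0.90 and 1.09 with H3.3WT at 1.01 to 1.58 RPM, and in the first 500 kb after it between -0.06 and 0.10 with H3.3WT at 4.08 to 5.56 RPM.

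Past the border the ratio fell further and then rose again. In the 30 bins from 60700001 to 61000000 H3.3WT averaged 4.57 RPM and H3.3K36M 3.28, a ratio of 0.717 (0.689 to 0.747). In the 40 bins from 61100001 to 61500000 they averaged 1.42 and 2.34 RPM, a ratio of 1.64 (1.56 to 1.73), with an H3.1 ratio of 1.07. A like alternation was seen near the other end of the 17-window run. From 42400001 to 42800000 H3.3WT had 5.71 RPM and the H3.3 ratio was 0.957 (0.928 to 0.986), from 42800001 to 43200000 H3.3WT had 1.97 RPM and the ratio was 1.74 (1.67 to 1.82), and from 43300001 to 43700000 H3.3WT had 5.06 RPM and the ratio was 1.10 (1.07 to 1.13). The H3.1 ratio of these 3 stretches was 0.783, 1.03 and 1.01 in that order, so it too was lowest in the first. These stretches were picked after their values were seen, for the contrast they show. H3.3WT is the denominator of the H3.3 ratio in them too, so the alternation is in part built in.

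The longest run below the median of all bins went from 108 to 116 Mb, 8 windows, with an H3.3K36M over H3.3WT ratio of 0.916 (0.910 to 0.923). Averages there were 4.39 RPM in H3.1WT, 4.09 in H3.1K36M, 4.66 in H3.3WT and 4.27 in H3.3K36M. The H3.1 ratio was 0.931 (0.924 to 0.939), so both mutants were lower than their wild types over this stretch as well. A second run below, of 5 windows from 28 to 33 Mb, had ratios of 0.991 (0.982 to 1.00) for H3.3 and 0.974 (0.964 to 0.984) for H3.1.

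At 10 kb, 777 bins of chromosome 13 had an H3.3K36M signal of 2-fold or more that of H3.3WT (6.93%, against 2.94% of all bins) and 48 had the opposite (0.428%, against 1.81% of all bins). After scaling the 2 libraries by the median of their bin ratios, which lowers every log2 ratio by 0.10, the counts were 508 higher (4.53%, against 1.95% of all bins) and 91 lower (0.811%, against 2.74%). Higher bins were spread over 79 of the 116 windows, and the 10 windows richest in them held 36.4%. Lower bins were in 13 windows, and 10 windows held 93.8% of them. With 48 bins in 13 windows, 10 windows must hold most, so this share cannot be set against the 36.4%. In the median higher bin H3.3WT was 1.40 RPM and H3.3K36M 3.37, with 3.45 and 3.66 in H3.1WT and H3.1K36M. The median lower bin went the other way, from 5.59 RPM in H3.3WT to 2.37 in H3.3K36M, with 3.40 and 3.49 in the H3.1 lines. The H3.3 signal in the mutant line was just below the H3.1 level in the higher bins, and further below it in the lower bins. Both sets of bins were picked by the H3.3 ratio. Low H3.3WT in the higher bins and low H3.3K36M in the lower bins are thus in part built in.

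Most runs of higher bins were a single bin, although most higher bins touched another one. The 777 formed 510 runs of touching bins, 356 of them a single bin, and 12 runs of at least 50 kb held 10.0% of the bins. The longest, chr13:68870001-68990000, was 120 kb long and went from 1.12 RPM in H3.3WT to 3.19 in H3.3K36M, 2.85-fold (2.59 to 3.13), while the H3.1 lines had 3.17 and 3.18 RPM. The next, chr13:72840001-72940000, went from 1.69 to 4.05 RPM, 2.40-fold (2.20 to 2.62). Of the 3 runs of 70 kb, chr13:58010001-58080000 went from 1.00 to 3.03 RPM, 3.02-fold (2.66 to 3.45). Its H3.1 ratio of 1.34 (1.22 to 1.48) was the highest of the 5 longest runs. The run chr13:47840001-47910000 went from 1.02 to 2.85 RPM, 2.79-fold (2.45 to 3.18). The last, chr13:27150001-27220000, differed from the other 4 in level: it went from 3.54 RPM, close to H3.1WT at 3.62, to 9.74 RPM, 2.75-fold (2.57 to 2.95), and 4 of its 7 bins carried a deposited H3.3K36M peak.

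The 48 lower bins formed 36 runs, 27 of a single bin, and none was longer than 30 kb. In chr13:20320001-20350000 H3.3WT had 6.08 RPM and H3.3K36M 2.48, 2.46-fold lower (2.15 to 2.82). In chr13:104070001-104100000 the values were 5.75 and 2.49 RPM, 2.31-fold lower (2.02 to 2.66), and in chr13:98620001-98650000 they were 4.89 and 2.31 RPM, 2.12-fold lower (1.84 to 2.46). The runs chr13:114760001-114780000 and chr13:114650001-114670000, both inside the lowest window, had 7.13 and 6.18 RPM in H3.3WT and 2.73 and 2.46 in H3.3K36M, 2.61-fold (2.23 to 3.06) and 2.51-fold (2.13 to 2.98) lower. In each of these 5 runs H3.3WT stood near or above both H3.1 lines, and H3.3K36M stood below H3.1K36M. The runs were picked by the H3.3 ratio, so this is in part built in.

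The H3.1 pair, which did not enter the choice of chromosome, was less uneven than the H3.3 pair. The median relative ratio of H3.1K36M over H3.1WT was 0.03 (rank 7 of 20). The SD of its 116 windows was 0.10, above the counting value of 0.017 and below the 0.32 seen for H3.3, and 0 windows were 0.3 or more from the median. There were 73 windows above the median (62.9%, against 45.9% of all windows), and 22 (19%) were at least 0.1 above it, against 16.2% of all windows. Of these 22, 13 lay in the 17 windows from 43 to 60 Mb. Of the 11216 bins, 0 were at least 2-fold higher (against 0.0122% of all bins) and 1 was at least 2-fold lower (against 0.064%). That bin, chr13:33120001-33130000, had 7.36 RPM in H3.1WT and 3.45 in H3.1K36M, 2.14-fold lower (1.73 to 2.64). In H3.3WT it had 10.6 RPM and in H3.3K36M 17.7, 1.68-fold higher (1.49 to 1.89). It is named because it was the only one.

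The deposited list of regions called in H3.3K36M held 476 peaks on chromosome 13, a density of 4.24 per Mb used (rank 7 of 20 chromosomes, 3.42 over all), and the H3.1K36M list held 0 of its 73 peaks there. The 476 peaks covered 1.95 Mb, with a median length of 2.2 kb, and the 36 that were at least 10 kb long made up 36.6% of the covered length. They were unevenly placed: the 10 windows with the most peak sequence held 40.5% of it, 20 windows had none, and the largest gap between peaks was 4.24 Mb. The windows at 63, 49 and 21 Mb held the most, 153.4, 120.4 and 79.4 kb. Their H3.3K36M over H3.3WT folds were 1.11 (1.10 to 1.13), 1.28 (1.26 to 1.30) and 1.51 (1.48 to 1.54), so the window with the most peak sequence was not among those called higher.

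Windows without peaks had the higher ratios. The 20 windows without peaks had a median relative ratio of 0.53 and 19 of them were above the median of all bins. The 96 windows with peaks had a median of 0.10, and 61 were above. At the level of bins it was the reverse: the 599 bins that held a peak had a median relative ratio of 0.33 (all peak bins 0.03), and the bins without a peak 0.18 (all 0.00). The median peak bin had 7.20 RPM in H3.3WT and 9.63 in H3.3K36M, against 3.68 and 3.62 in the H3.1 lines. The peaks were called in H3.3K36M, a library of the ratio, so a higher value in their bins is partly built in. Peaks were about as common among the 777 higher bins (42, 5.41%) as among all bins of the chromosome (5.34%), and 0 of the 48 lower bins held one.

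The 5 longest peaks were all higher in the mutant line. Peaks were called in H3.3K36M, the numerator of the ratio, so this is in part built in. The bins of the second longest, chr13:49431201-49476800, had 5.41 RPM in H3.1WT, 5.94 in H3.1K36M, 10.4 in H3.3WT and 15.9 in H3.3K36M, 1.53-fold (1.45 to 1.62). Over its 3 used bins, which end at 111710000, the peak chr13:111682601-111724000 went from 12.0 to 14.8 RPM, 1.23-fold (1.15 to 1.32). The H3.1 lines went the other way there, from 8.59 to 5.96 RPM, a ratio of 0.694 (0.629 to 0.765). The peaks chr13:21920401-21951600 and chr13:23516001-23545800 lie in the first of the 3 segments and went from 9.43 to 14.7 RPM, 1.56-fold (1.47 to 1.66), and from 11.7 to 16.6 RPM, 1.43-fold (1.35 to 1.51). Their H3.1 ratios were 0.976 (0.867 to 1.10) and 0.993 (0.870 to 1.13), with intervals that include 1. The longest, chr13:63329801-63428200, had 11.4 RPM in H3.3WT and 15.0 in H3.3K36M over the 7 used bins it touches, 1.32-fold (1.26 to 1.38). The H3.1 lines had 3.48 and 3.52 RPM over these bins.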

How the data were processed

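The deposited table gives RPM per bin for the 4 HA libraries; per the submitters' processing notes reads were aligned with Bowtie 1.0.0 to mm9. Peak positions are as the authors deposited them. The peak caller and its settings are not given in the sources used here. Some label points bear on the groups: the H3.3 precipitations carry titles that open with H3.1, so groups follow the genotype field; a protocol names a Cbx2 antibody, and the sample descriptions, which name HA, were followed. The RPM steps of each library gave whole reads for 100% of values (tolerance 0.01 read), and these reads gave the exact intervals. PCR duplicates cannot be told from separate molecules.

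Only 10 kb bins reaching a mean of 0.5 RPM over the libraries were kept; 185 wider rows of chromosome 13 were left out. Log2 ratios used a pseudocount of 0.1 RPM. Windows of 1 Mb, starting at whole Mb, needed 50 used bins and give the ratio of summed RPM. No test was run, with 1 library per group. The script was tested on simulated data. Named regions are the 5 highest and 5 lowest windows, the 3 highest and 3 lowest for H3.3WT over H3.1WT, all segments, the 5 longest runs of 2-fold bins in each direction, the 5 longest peaks and the 3 windows with most peak sequence. Members, lists and rules were chosen with earlier results of these data known. Alternatives changed the filter, pseudocount, window size, scaling, centring and thresholds. Tables were handled with pandas 2.3.3 and numpy 2.4.6 under Python 3.11.15, intervals came from scipy 1.17.1, and matplotlib 3.10.9 drew the plots.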

Additional observations from a re-analysis of the deposited data

How the results depend on the processing

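Of 195 recomputed values over 26 results, 133 were called the same, 61 moved and 1 reversed. A count was called the same within a set factor, and a level or SD within a counting-error tolerance. A value called the same was therefore not always unchanged. The 777 higher bins were 536 without the top and bottom 1% of bins and 941 with a pseudocount of 0.01 RPM. The 41 higher windows were 57 at a threshold of 0.2. Such changes were called the same. The relative level of chromosome 13 (0.19) was 0.22 with only bins above the median signal, 0.18 without peak bins and 0.18 without the top and bottom 1% of bins. It was 0.19 and 0.15 with pseudocounts of 0.01 and 1 RPM, 0.14 as a ratio of summed RPM and 0.20 against the other autosomes. The window SD (0.32) was 0.28 with bins above the median signal, 0.30 without the top and bottom 1%, 0.38 in 500 kb windows and 0.27 in 2 Mb windows. The 3 higher segments became 1 with bins above the median signal, 13 in 500 kb windows, 8 with the median of bin ratios per window, 12 at a threshold of 0.2, 1 when centred on chromosome 13 itself and 8 when centred on all windows, an alternative added after seeing the data. The number of segments is thus set by the rule. The 0 lower segments became 1 in 500 kb windows and 2 when centred on chromosome 13. Windows at least 0.3 above (41) were 27 with bins above the median signal, 89 at 500 kb, 20 at 2 Mb and 20 centred on chromosome 13. Windows at least 0.3 below (10) were 1, 20, 2 and 21 in that order, and 3 at a threshold of 0.4. The total number of windows was larger at 500 kb and smaller at 2 Mb, and the filter left some windows out. Counts at those settings are thus not shares of the same total. Bins at least 2-fold higher (777) were 195 with bins above the median signal, 508 after scaling and 170 with a pseudocount of 1 RPM. Bins at least 2-fold lower (48) were 91 after scaling, 19 without the top and bottom 1% and 14 with that pseudocount. Alternatives for the next values were added after seeing the data. With bins above the median signal the H3.1 level (0.029) was 0.0125 and its window SD (0.10) was 0.12. The H3.3WT over H3.1WT level (-0.0204) was -0.18 with bins above the median signal, -0.0163 with wider rows, -0.029 without peak bins and, reversed, 0.0185 without the top and bottom 1%. In the K36M lines (0.0473) it was 0.0384 with bins above the median signal, 0.0336 without peak bins and 0.0412 without the top and bottom 1%. Of the 476 peaks, 266 were at or above the median length. The cause of these moves was not tested, beyond the smaller number of bins under a filter. None of the 64 values recomputed for the named windows reversed. With bins above the median signal, these values cover only the low windows at 108, 110, 114 and 115 Mb. The windows at 57, 11, 10, 68 and 82 Mb, the highest, have no value at that setting, nor has the window at 35 Mb. Whether their ratios hold under that filter was thus not tested. No replicate could be left out, and no paired analysis was possible because each group has 1 library and the labels carry no replicate numbers. At 125 to 156 reads per median bin, counting error alone gives an SD of 0.19 in a bin ratio, so single 10 kb bins are less certain than windows.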

Other observations

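The 179 rows of chromosome 13 wider than 10 kb that met the minimum, 3634 kb in all, were outside the comparisons above. Summed over them, H3.3WT had 1488 RPM and H3.3K36M 1629, 1.09-fold (1.08 to 1.11), and H3.1WT had 1367 and H3.1K36M 1360, a ratio of 0.995 (0.983 to 1.008). The highest bin of the chromosome by mean signal, chr13:77570001-77580000, had 56.4 RPM in H3.1WT and 82.0 in H3.1K36M, 1.45-fold (1.38 to 1.54), and 18.9 in H3.3WT and 15.9 in H3.3K36M, 1.19-fold lower (1.07 to 1.32). The second highest, chr13:3370001-3380000, lies near the centromere end and was high in all 4 libraries, with 18.1 RPM in H3.1WT, 20.9 in H3.1K36M, 17.4 in H3.3WT and 24.3 in H3.3K36M. It held no deposited peak and, like the highest bin, was named after its values were seen. Both mutants were higher than their wild types in this second bin, 1.15-fold (1.04 to 1.28) for H3.1 and 1.40-fold (1.27 to 1.54) for H3.3.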
